A study of Mus musculus with 4 samples.

Results

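The genes Epcam, Spint1, Spint2, St14 and Prss8 encode an epithelial adhesion molecule, a pair of Kunitz-type protease inhibitors and a pair of membrane-bound serine proteases. They were picked by gene name, and all 5 were found among the 54446 genes of the deposited table. RNA was sequenced from retinal endothelial cells, which line blood vessels, of C57BL/6 mice at postnatal day 16, and each library held 100 cells taken by flow cytometry. There were 2 libraries from mice labelled Zeb1-CKO, whose genotype field reads Zeb1 knockdown, and 2 from mice labelled control. Zeb1 is a zinc-finger transcriptional repressor known to bind E-box motifs of epithelial genes. The labels name no Cre driver, deleted exons or number of animals per library, and the spread that p-values rest on here may therefore be technical.

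EpCAM is a homophilic adhesion molecule of epithelial cells that holds claudins such as claudin-7 at the lateral membrane. Matriptase, encoded by St14, is a type II transmembrane serine protease that cleaves EpCAM and activates other proteases, and prostasin, encoded by Prss8, is a membrane-anchored protease that acts with it in epithelia. The inhibitors HAI-1, encoded by Spint1, and HAI-2, encoded by Spint2, block both proteases, and in the human intestine loss of EpCAM or of HAI-2 causes congenital tufting enteropathy. The system is known mainly from epithelia.

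Levels are given in FPKM, a measure of fragments relative to transcript length and library size, as deposited. The estimated depth was 21.9 and 16.8 M fragments in the Zeb1-CKO libraries and 20.6 and 11.2 M in the controls, so low values are least precise in control library 2. These depths, and the fragment numbers made from them, could be too low by a factor of 2, since values also lay near steps of 0.5 this size. Zeb1 itself had 8.66 and 7.07 FPKM in Zeb1-CKO libraries, against 10.7 and 11.1 FPKM in the controls. The log2 fold change of Zeb1 was -0.43 (SE 0.15) and limma's adjusted p of 0.235 missed the threshold of 0.05. The labels do not say which part of Zeb1 was altered, so a value per gene is a weak check of the genotype. All 10 endothelial markers were fitted and none passed the threshold, with summed levels of 4210 and 4590 FPKM in Zeb1-CKO libraries and 3700 and 4460 FPKM in controls. Cldn5 made up most of each sum, at 3130 and 3500 FPKM in Zeb1-CKO libraries and 2690 and 3430 FPKM in controls. Without overlap, Pecam1, Tek, Tie1 and Vwf were higher in Zeb1-CKO libraries and Cdh5 and Esam lower. These genes were named after their values were seen.

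Promoters are shown for Epcam, Spint1 and Spint2, the 3 of the 5 members that the RefSeq tables held. They are shown because CACCTG is the core of the E-box that ZEB1 is known to bind. The windows run from 250 bases before to 50 after the RefSeq transcription start (build GRCm38.p6), 5′ to 3′ on the gene's own strand. Capitals mark CACCTG, or CAGGTG where the motif lies on the opposite strand. Epcam is at chr17:87635729-87636028 (+), Spint1 at chr2:119237110-119237409 (+) and Spint2 at chr7:29281928-29282227 (-).
Epcam: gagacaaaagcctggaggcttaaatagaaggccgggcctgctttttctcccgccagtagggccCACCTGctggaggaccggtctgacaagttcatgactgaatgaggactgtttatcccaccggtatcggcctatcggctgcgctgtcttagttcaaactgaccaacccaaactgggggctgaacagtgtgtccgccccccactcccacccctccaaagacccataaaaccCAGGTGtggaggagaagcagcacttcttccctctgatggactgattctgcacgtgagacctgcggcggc
Spint1: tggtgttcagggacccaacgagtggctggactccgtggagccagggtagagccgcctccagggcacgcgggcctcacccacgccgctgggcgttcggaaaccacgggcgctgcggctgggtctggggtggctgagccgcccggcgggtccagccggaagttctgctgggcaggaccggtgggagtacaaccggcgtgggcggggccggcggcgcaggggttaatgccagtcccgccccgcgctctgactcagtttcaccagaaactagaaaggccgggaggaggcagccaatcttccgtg
Spint2: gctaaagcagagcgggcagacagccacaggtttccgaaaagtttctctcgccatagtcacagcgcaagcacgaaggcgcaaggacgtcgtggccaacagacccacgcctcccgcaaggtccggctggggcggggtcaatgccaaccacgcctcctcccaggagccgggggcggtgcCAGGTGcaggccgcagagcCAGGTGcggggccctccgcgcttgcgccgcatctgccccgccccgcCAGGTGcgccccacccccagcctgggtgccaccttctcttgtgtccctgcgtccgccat
The Epcam window held the motif at 187 and 19 bases before the start. The Spint2 window held it at 74, 55 and 9 bases before the start. The Spint1 window held no such letters. Of 32851 RefSeq promoter windows of the same length, 20.2% held at least 1 copy on either strand, 2.88% at least 2 and 0.365% at least 3. The RefSeq start lay 0 bases from the start in the deposited table for Epcam, 2 bases for Spint1 and 65 bases for Spint2. A match is a description of the letters and no measure of binding.

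Epcam, the adhesion molecule, was close to absent in control cells and well expressed in Zeb1-CKO cells. It had 58.5 and 57.1 FPKM in Zeb1-CKO libraries, and 0.0477 FPKM in control library 1 while control library 2 lists it at 0. At the estimated depth the control 1 value is worth 2.01 fragments of the longest coding transcript, so the groups did not overlap and the control level rests on very few reads. Among all 54446 genes Epcam ranked 725 and 813 by level in the Zeb1-CKO libraries, against 26644 and 29205 in controls. The log2 fold change on log2(FPKM + 1) was 5.84 (SE 0.14, 95% interval 5.5 to 6.19), with limma's adjusted p at 0.00032 over 13651 fitted genes. That scale understates the change of genes this low in controls. In RNA from a sorted population, fewer cells of a type and less RNA per cell cannot be told apart. The gene starts at chromosome 17, position 87635979 in mm10, as the deposited table gives it.

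**Figure D1:**
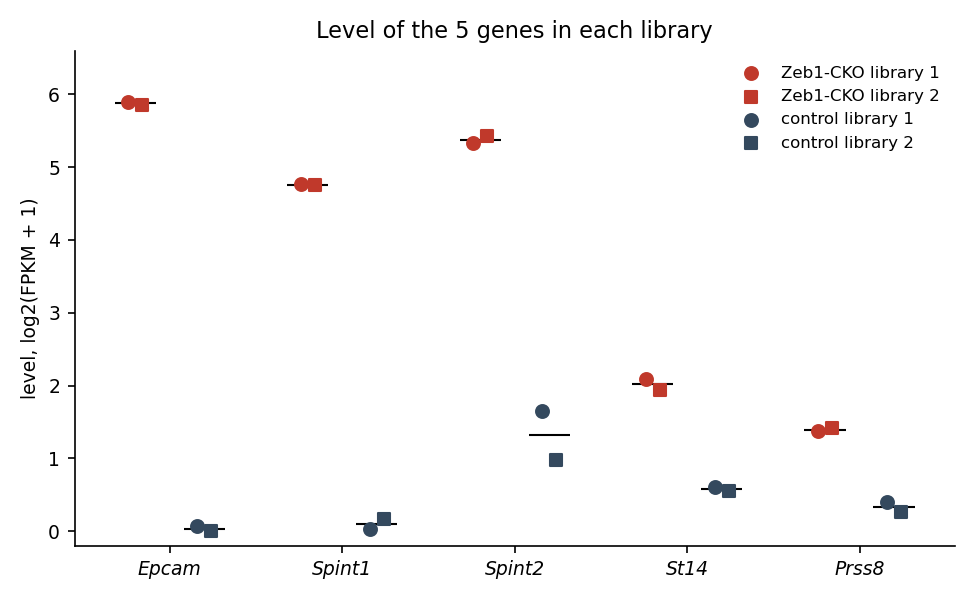
Level of each of the 5 genes, as log2(FPKM + 1) on the vertical axis, in the 2 Zeb1-CKO libraries (red, left of each pair) and the 2 control libraries (dark, right). Bars are group means. Both Zeb1-CKO libraries lie above both controls for every gene, from Epcam at 58.5 and 57.1 FPKM down to Prss8 at 1.60 and 1.66 FPKM.

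The Kunitz-type inhibitor genes rose with it. Spint1, for HAI-1, was measured at 26.2 and 25.9 FPKM in Zeb1-CKO libraries, against 0.0176 and 0.124 FPKM in controls. The control values are worth about 0.842 and 3.23 fragments, so Spint1 was at the edge of detection there and no fold of the means is given. Its log2 fold change was 4.66 (SE 0.15, 95% interval 4.29 to 5.03), with limma's adjusted p at 0.000522.

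Spint2, for HAI-2, was the only member with more than 1 FPKM in any control library. It was measured at 39.2 and 42.0 FPKM in Zeb1-CKO libraries, against 2.15 and 0.975 FPKM in controls. The Zeb1-CKO libraries were close to each other, with a mean of 40.6 ± 2.0 FPKM (SD, n = 2), while the controls differed more for their level, with a mean of 1.56 ± 0.834 FPKM (SD, n = 2). The control values are worth 61.4 and 15.1 fragments at the estimated depth. The ratio of the means, Zeb1-CKO over control, was 26.0, and the log2 fold change was 4.06 (SE 0.24, 95% interval 3.46 to 4.66) with limma's adjusted p at 0.00221. By FPKM, a level per length, Spint2 stood above Spint1 in every library, with a Spint1 to Spint2 ratio of 0.669 and 0.616 in Zeb1-CKO libraries and 0.00817 and 0.127 in controls. Spint1 spans chr2:119237362-119249527 and Spint2 chr7:29256323-29281912 in mm10.

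The protease genes also had higher values in Zeb1-CKO libraries, at much lower levels. St14, for matriptase, was measured at 3.27 and 2.84 FPKM in Zeb1-CKO libraries, against 0.516 and 0.465 FPKM in controls. The groups did not overlap, and the means of 3.06 ± 0.299 FPKM in Zeb1-CKO cells and 0.491 ± 0.0359 FPKM in controls (SD, n = 2 each) gave a ratio of 6.23. The log2 fold change was 1.44 (SE 0.19, 95% interval 0.97 to 1.92), with limma's adjusted p at 0.0224. This call ended without any 1 of the 4 libraries, at an adjusted p of 0.158 without Zeb1-CKO library 1, 0.133 without Zeb1-CKO library 2, 0.051 without control library 1 and 0.0545 without control library 2. The log2 fold change stayed between 1.37 and 1.52 in these fits. St14 spans chr9:31089402-31131853 in mm10.

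Prss8, for prostasin, was the one member that did not reach the mean of 1 FPKM needed for the fit, at 0.945 FPKM over the 4 libraries. It was measured at 1.60 and 1.66 FPKM in Zeb1-CKO libraries, against 0.318 and 0.202 FPKM in controls, so the groups did not overlap. The control values are worth 12.1 and 4.2 fragments at the estimated depth, so a ratio to them is imprecise. The ratio of the means was 6.26, beside 6.23 for St14, and the difference of these ratios was not tested. With the filter lowered to a mean of 0.1 FPKM, its log2 fold change was 1.06 (SE 0.19) and limma's adjusted p was 0.0762, which did not pass. At that filter 0.905% of 24850 genes were called higher. Prss8 spans chr7:127925716-127930104 in mm10 and 122 of its 1852 exon bases overlap Kat8, which runs on the opposite strand. The library protocol does not mark strand. Kat8 was at 3.58 and 3.33 FPKM in Zeb1-CKO libraries and at 5.04 and 4.92 FPKM in controls, opposite in direction to Prss8.

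In all, 4 of the 5 members were fitted and all 4 were called higher, beside 2.23% of the 13651 fitted genes called higher and 0.901% called lower. Epcam, Spint1 and St14 were below 1 FPKM in both controls and reached the filter only through their Zeb1-CKO values, so this count is a description and no support by itself. Both Zeb1-CKO libraries were above both controls for all 5 members, which held for 27.1% of fitted genes, while 22.3% had both Zeb1-CKO libraries below both controls. By log2 fold change, Epcam ranked 3, Spint1 ranked 7, Spint2 ranked 11 and St14 ranked 193 among the 13651. The calls of Epcam, Spint1 and Spint2 held without any 1 library, at adjusted p of up to 0.0221, 0.0221 and 0.0387. No transcript of another gene was a near-identical copy of any of the 5.

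**Figure D2:**
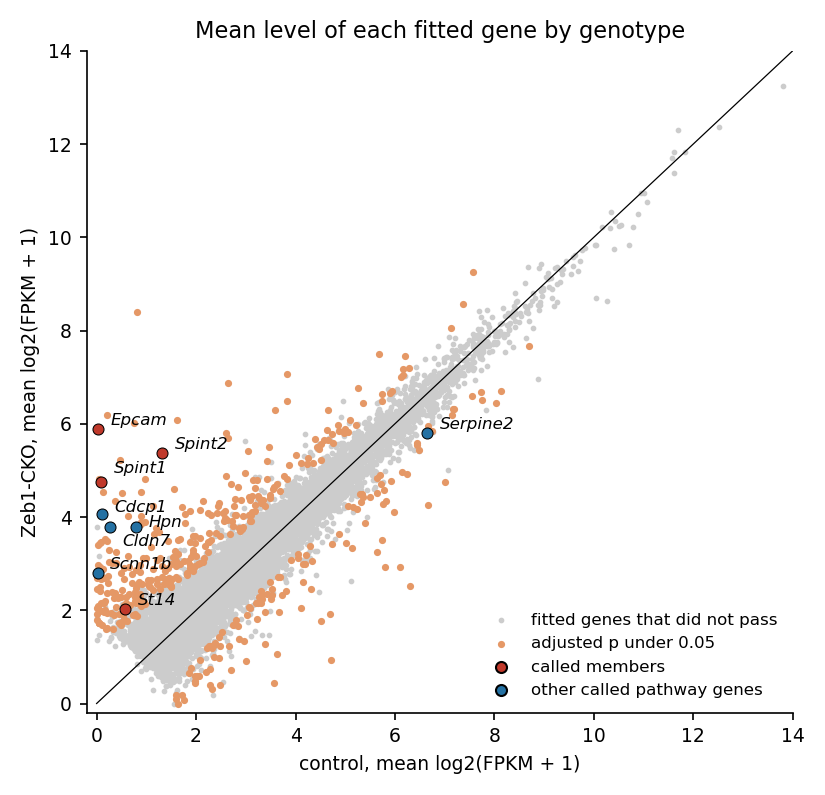
Mean level of each of 13651 fitted genes, as log2(FPKM + 1), in control (horizontal) and Zeb1-CKO cells (vertical), with the line of equality. Epcam, Spint1 and Spint2 lie among the genes farthest above the line, with log2 fold changes of 5.84, 4.66 and 4.06. Epcam and Spint1 are at the left edge and Spint2 farther right. St14, at 1.44, lies among many genes near the lower end, left of Spint2.

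The summed FPKM of the inhibitor genes was compared with that of the protease genes. Spint1 alone was below both St14 and Prss8 in each control, so Spint2 made up most of the inhibitor sum there. Spint1 and Spint2 summed to 65.4 and 67.9 FPKM in Zeb1-CKO libraries, against 2.17 and 1.10 FPKM in controls. St14 and Prss8 summed to 4.87 and 4.50 FPKM in Zeb1-CKO libraries, against 0.834 and 0.668 FPKM in controls. The ratio of the inhibitor sum to the protease sum was thus 13.4 and 15.1 in Zeb1-CKO libraries and 2.60 and 1.65 in controls. The libraries did not overlap, and with 2 against 2 the smallest two-sided p of an exact permutation test is 0.33, so none was run. Adding Hpn, the gene of hepsin, another protease that HAI-1 and HAI-2 inhibit, narrows the ratio to 3.56 and 4.09 in Zeb1-CKO libraries and 1.29 and 0.856 in controls. Hpn was added to the sum after its values were seen.

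**Figure D3:**
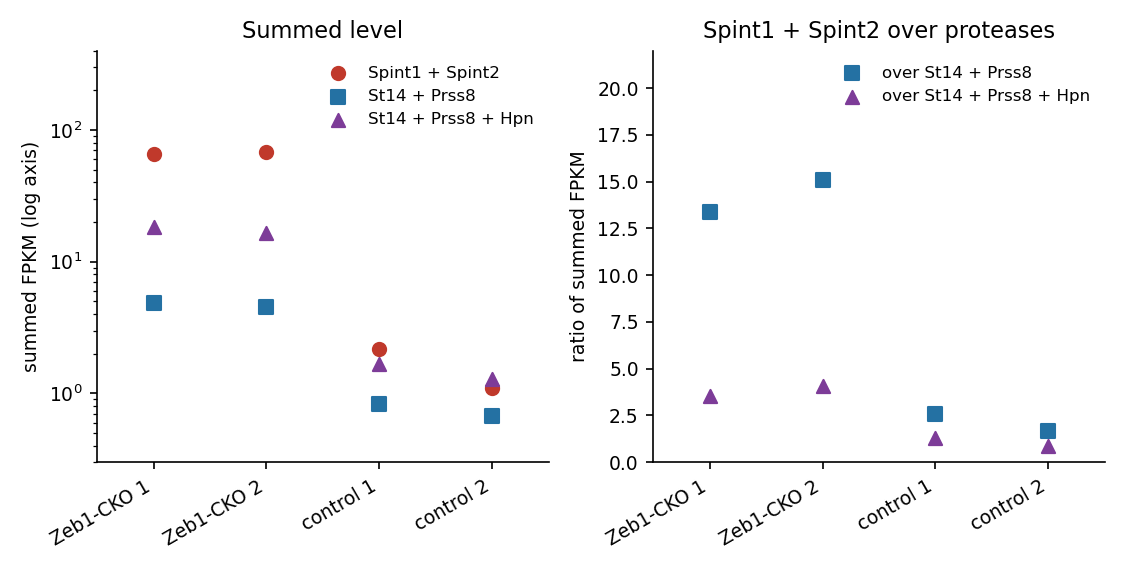
Left, summed FPKM of the inhibitor genes and of the protease genes in each library on a log axis. Right, the ratio of the sums on a linear axis. The ratio over St14 and Prss8 is 13.4 and 15.1 in the Zeb1-CKO libraries and 2.60 and 1.65 in the controls, and with Hpn added it is 3.56 and 4.09 against 1.29 and 0.856.

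Around the 5 members, 77 genes of the wider pathway were followed in 7 lists, members included. Of these, 32 were fitted, 8 rose and 1 fell, where 2.23% of all fitted genes rose and 0.901% fell. Their median log2 fold change was 0.13, against 0.02 over all fitted genes. Without the members, 4 of 28 fitted genes rose and 1 fell, with a median of 0.08. A gene silent in controls could be fitted only if it was higher in Zeb1-CKO cells. The 4 that rose, Cldn7, Hpn, Cdcp1 and Scnn1b, were below 1 FPKM in both controls. They reached the filter only through their Zeb1-CKO values, so these counts and the medians by list are a description and no support by themselves. By list, members included, the median was 2.15 over 4 fitted genes for EpCAM and its partners and 0.02 over 11 for the genes of its cleavage. It was 0.38 over 6 fitted Kunitz-type inhibitors and 0.61 over 7 fitted substrates and receptors. The medians of -0.17 for serpins and 2.22 for transmembrane proteases rest on 2 fitted genes each, St14 and Hpn for the proteases.

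Of the EpCAM family and its membrane partners, Epcam and Cldn7 rose among 4 fitted genes of 7. Cldn7, for the claudin that EpCAM binds, was measured at 12.7 and 12.9 FPKM in Zeb1-CKO libraries, against 0.231 and 0.168 FPKM in controls, with a log2 fold change of 3.53 (SE 0.16) and limma's adjusted p at 0.000974. The tetraspanin gene Cd9 was abundant in both genotypes, at 158 and 174 FPKM in Zeb1-CKO libraries and 102 and 90.2 FPKM in controls, and just missed limma's threshold (log2 fold change 0.78, SE 0.14, adjusted p = 0.0517). It passed with upper quartile scaling, quantile normalization or a robust variance, at adjusted p of 0.049, 0.0337 and 0.0488. Cd44, the other fitted gene of this list that did not pass, was lower in Zeb1-CKO libraries. It had 2.36 and 2.7 FPKM there, against 4.26 and 5.46 FPKM in controls (log2 fold change -0.72, SE 0.18, limma's adjusted p = 0.107). Cd9 and Cd44 were named after their values were seen.

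None of the 11 genes for the cleavage of EpCAM and the partners of its intracellular domain passed limma's threshold, with a median log2 fold change of 0.02. All 11 were fitted, and they hold the sheddases, the subunits of gamma-secretase and the nuclear partners. Ctnnb1, for beta-catenin, was measured at 182 and 151 FPKM in Zeb1-CKO libraries, against 118 and 168 FPKM in controls. Adam10, for a sheddase, was at 30.2 and 71.7 FPKM in Zeb1-CKO libraries and at 84.9 and 32.8 FPKM in controls. The spread of Adam10 within each genotype was larger than the difference between them, at an SE of 0.55 on a log2 fold change of -0.18.

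Among the Kunitz-type inhibitors, Spint1 and Spint2 rose and the other 4 fitted genes did not pass. The most abundant of these, Aplp2, for an amyloid-precursor-like protein with a Kunitz domain, was at 142 and 126 FPKM in Zeb1-CKO libraries and at 139 and 121 FPKM in controls. App, for the amyloid precursor protein, was at 47.5 and 40.8 FPKM in Zeb1-CKO libraries and at 27.4 and 31.7 FPKM in controls (log2 fold change 0.56, SE 0.15, limma's adjusted p = 0.133). The remaining 6 of the 12 genes were not fitted, and 2 of them, Spint3 and Spint4, were listed at 0 in all 4 libraries. Aplp2, App, Spint3 and Spint4 were named after their values were seen.

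Of the serpins known to inhibit such proteases, Serpine2 fell and Serpinb6a did not pass, and the other 4 of 6 were not fitted. Serpine2, for protease nexin-1, an inhibitor of thrombin, urokinase and prostasin, was measured at 54.7 and 55.2 FPKM in Zeb1-CKO libraries, against 109 and 91.1 FPKM in controls. Its log2 fold change was -0.85 (SE 0.14) with limma's adjusted p at 0.0439. The call ended without any 1 library, at an adjusted p of 0.191 and 0.189 without Zeb1-CKO library 1 or 2 and 0.121 and 0.0642 without control library 1 or 2. Summed markers of pericytes, the mural cells of capillaries, moved with it, at 1420 and 1500 FPKM in Zeb1-CKO libraries and 1980 and 1630 FPKM in controls. Rgs5 made up most of each sum, at 1200 and 1260 FPKM in Zeb1-CKO libraries and 1670 and 1350 FPKM in controls. None of the 6 pericyte markers was at 0 in both Zeb1-CKO libraries and none passed the threshold. All 6 were lower in both Zeb1-CKO libraries than in both controls, which held for 22.3% of fitted genes. Rgs5 was named after its values were seen. The part of pericytes in the fall of Serpine2 was not tested.

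Hepsin was the second transmembrane protease to rise. Hpn was measured at 13.5 and 12.1 FPKM in Zeb1-CKO libraries, against 0.848 and 0.616 FPKM in controls, with no overlap. Its means of 12.8 ± 0.987 FPKM in Zeb1-CKO cells and 0.732 ± 0.164 FPKM in controls (SD, n = 2 each) gave a ratio of 17.5, a log2 fold change of 3.0 (SE 0.16) and a limma adjusted p of 0.00171. By FPKM Hpn stood above St14 in every library. The other 16 of 18 type II transmembrane serine protease genes stayed below the mean of 1 FPKM, and 3 of them, Tmprss4, Tmprss13 and Tmprss11f, were listed at 0 in all 4 libraries. These 3 were named after their values were seen. None of the 7 genes in the list of membrane-anchored proteases around prostasin was fitted. After Prss8, the most abundant was Prss22, for a tryptase, at 0.922 FPKM and listed at 0 in the Zeb1-CKO libraries and at 0.0736 FPKM and listed at 0 in the controls.

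Of 16 substrates and their receptors, 7 were fitted, and Cdcp1 and Scnn1b rose. Cdcp1, for a transmembrane glycoprotein that matriptase cleaves, was measured at 15.9 and 15.7 FPKM in Zeb1-CKO libraries, against 0.0274 and 0.132 FPKM in controls (log2 fold change 3.96, SE 0.16, limma's adjusted p = 0.000883). Scnn1b, for the beta subunit of the epithelial sodium channel, was at 5.25 and 6.79 FPKM in Zeb1-CKO libraries, against 0.0331 FPKM in control library 1 while control library 2 lists it at 0 (log2 fold change 2.78, SE 0.20, limma's adjusted p = 0.00332). The call of Scnn1b ended without Zeb1-CKO library 2, at an adjusted p of 0.0574. The other subunits of this channel differed from it in level. Scnn1a, the alpha subunit gene, was at 0.723 and 0.967 FPKM in Zeb1-CKO libraries and at 0.165 and 0.226 FPKM in controls, and Scnn1g, the gamma subunit gene, was listed at 0 in all 4 libraries.

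F2rl1, for the protease-activated receptor PAR2, was also below the filter, at 0.449 and 0.958 FPKM in Zeb1-CKO libraries, against 0.126 FPKM in control library 2 while control library 1 lists it at 0. Hgf, for hepatocyte growth factor, which hepsin and matriptase activate, did not exceed 0.0407 FPKM in any library. Scnn1a, Scnn1g, F2rl1 and Hgf were named after their values were seen.

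**Figure D4:**
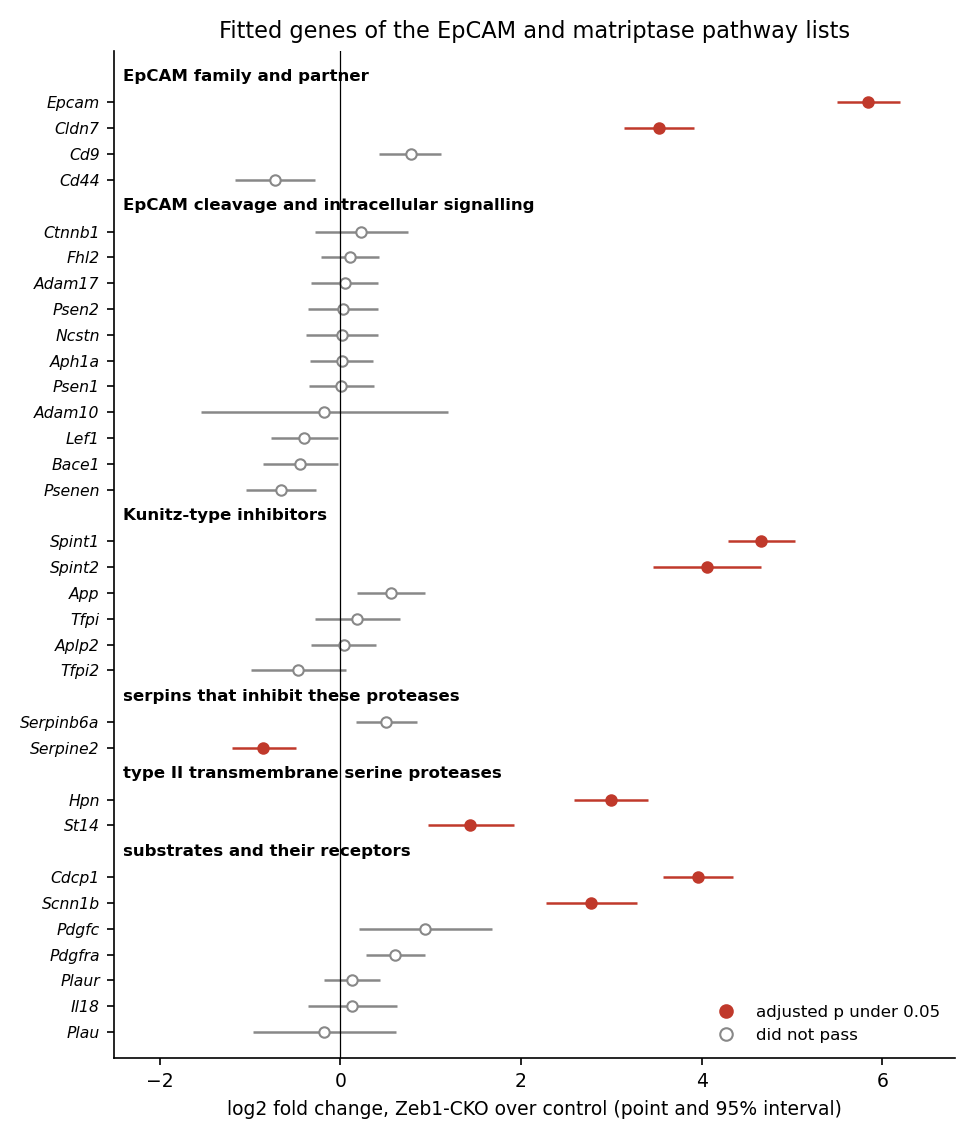
Log2 fold change of the 32 fitted pathway genes, Zeb1-CKO over control, with its 95% interval, grouped by list. Filled red points passed limma's adjusted p of 0.05. The 8 genes that rose run from Epcam at 5.84 to St14 at 1.44, and Serpine2 at -0.85 is the 1 that fell. The cleavage genes lie between -0.66 and 0.23.

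The other called pathway genes were searched for the same E-box letters as the promoters of Epcam, Spint1 and Spint2. The Hpn window nearest to the gene's start in the deposited table, 36 bases away, held 3 copies, and a second Hpn window held none. The Cdcp1 window held 2 copies, and the Scnn1b window 1 copy. The Cldn7 window at the deposited start held none, and a window whose start lies 642 bases away held 2 copies. The Serpine2 window held none, but its start lies 2515 bases from the deposited one.

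The genes most like each called member over the 4 libraries were found by the distance between log2(FPKM + 1) values. A distance of 0 means the same level in every library. The other members and predicted or unnamed genes were left out of this search, so a member may lie nearer than a gene named here. Nearest to Epcam were the claudin gene Cldn4 at a distance of 0.69, the ubiquitin ligase gene Rnf128 at 1.12, the adaptor subunit gene Ap1m2 at 1.52 and the E-cadherin gene Cdh1 at 1.89. Cldn4 was measured at 58.4 and 87.5 FPKM in Zeb1-CKO libraries, against 0.321 FPKM in control library 1 while control library 2 lists it at 0. Nearest to Spint1 were Ap1m2 at 0.20, Cdh1 at 0.38, Rnf128 at 0.85 and the keratin gene Krt18 at 0.87. Ap1m2 was at 25.2 and 29.1 FPKM in Zeb1-CKO libraries and at 0.0108 and 0.0515 FPKM in controls, close to Spint1 in every library.

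Nearest to Spint2 were Tmc4, a transmembrane channel-like gene, at 0.98, Stxbp2, for a syntaxin-binding protein, at 1.19, Rnf128 at 1.3 and the keratin gene Krt23 at 1.32. Tmc4 was at 26.0 and 28.8 FPKM in Zeb1-CKO libraries and at 1.10 and 0.832 FPKM in controls. Nearest to St14 were Mpp3 at 0.15, the endothelin gene Edn3 at 0.21, the polarity gene Patj at 0.22 and Mfsd4a at 0.23. Edn3 was at 3.28 and 3.39 FPKM in Zeb1-CKO libraries and at 0.429 and 0.5 FPKM in controls. All of these neighbours were called higher by limma, with adjusted p between 0.000522 and 0.0281, but they were chosen for likeness to called members in the same libraries, so these calls are no independent result. The call of Stxbp2 ended without Zeb1-CKO library 2, at an adjusted p of 0.0514. Those of Mpp3, Edn3 and Patj ended without either Zeb1-CKO library and that of Mfsd4a without any 1 library, at adjusted p of up to 0.138, 0.129, 0.138 and 0.175.

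Markers of other epithelia that sorted retinal cells could hold were compared by list. Of 9 markers of retinal pigment epithelium, Rpe65 and Tyrp1 were listed at 0 in both Zeb1-CKO libraries, and the list summed to 5.86 and 5.71 FPKM there, against 6.72 and 5.63 FPKM in controls. Within this list Pmel, a gene of melanosomes, had 1.42 and 1.62 FPKM in Zeb1-CKO libraries, against 0.494 and 0.514 FPKM in controls with no overlap (log2 fold change 0.74, SE 0.21, limma's adjusted p = 0.143). Rdh5, a gene of the visual cycle, had 3.19 and 2.36 FPKM in Zeb1-CKO libraries and 4.36 and 3.66 FPKM in controls (limma's adjusted p = 0.329). Mlana, which was not fitted, was lower without overlap, at 0.0248 and 0.0924 FPKM in Zeb1-CKO libraries and 0.265 and 0.241 FPKM in controls. Best1, which was fitted, overlapped between genotypes. Neither Pmel nor Rdh5 passed the threshold. Pmel, Rdh5, Mlana and Best1 were named after their values were seen, and their part in the members' values was not tested. Of 10 markers of corneal, conjunctival or other stratified epithelium, Krt5, Krt14 and Krt13 were listed at 0 in both Zeb1-CKO libraries, and the list summed to 0.152 and 0.217 FPKM, against 0.281 and 0.626 FPKM in controls. The 7 lens markers summed to 0.502 and 0.172 FPKM in Zeb1-CKO libraries and 0.604 and 0.759 FPKM in controls. No marker of these 3 lists passed the threshold, and 3 markers, all of retinal pigment epithelium, were fitted.

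Transcripts of other retinal cells were measured in the sorted cells. Smooth-muscle markers summed to 56.6 and 76.1 FPKM in Zeb1-CKO libraries and 145 and 110.0 FPKM in controls, with Tagln lower by limma and none at 0 in both Zeb1-CKO libraries. Microglial and myeloid markers summed to 22.6 and 10.5 FPKM in Zeb1-CKO libraries and 26.1 and 80.5 FPKM in controls. Red-cell markers summed to 737 and 1400.0 FPKM in Zeb1-CKO libraries and 2710.0 and 3280.0 FPKM in controls. No marker of these 3 lists was at 0 in both Zeb1-CKO libraries. The sums of these 3 lists were lower in both Zeb1-CKO libraries than in both controls, but not every marker was. The microglial gene P2ry12 was higher, at 0.861 and 0.993 FPKM in Zeb1-CKO libraries and 0.615 and 0.441 FPKM in controls. C1qa, Cx3cr1, Aif1, Lyz2 and the smooth-muscle marker Cnn1 overlapped between genotypes. These genes were named after their values were seen. The part of these cells in the members' values was not tested. Müller glia and astrocyte markers summed to 159 and 239 FPKM in Zeb1-CKO libraries and 172 and 166 FPKM in controls. These sums overlapped between genotypes, but most single markers did not. Aqp4, Gfap, Pax2 and Slc1a3 were higher in both Zeb1-CKO libraries than in both controls, Glul was lower, and Rlbp1 overlapped. Glul had 44.9 and 45.3 FPKM in Zeb1-CKO libraries and 71.9 and 64.8 FPKM in controls. No marker of this list passed the threshold, and these genes were named after their values were seen. Photoreceptor markers summed to 42.9 and 48.9 FPKM in Zeb1-CKO libraries and 78.3 and 9.08 FPKM in controls, and these sums overlapped as well.

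**Figure D5:**
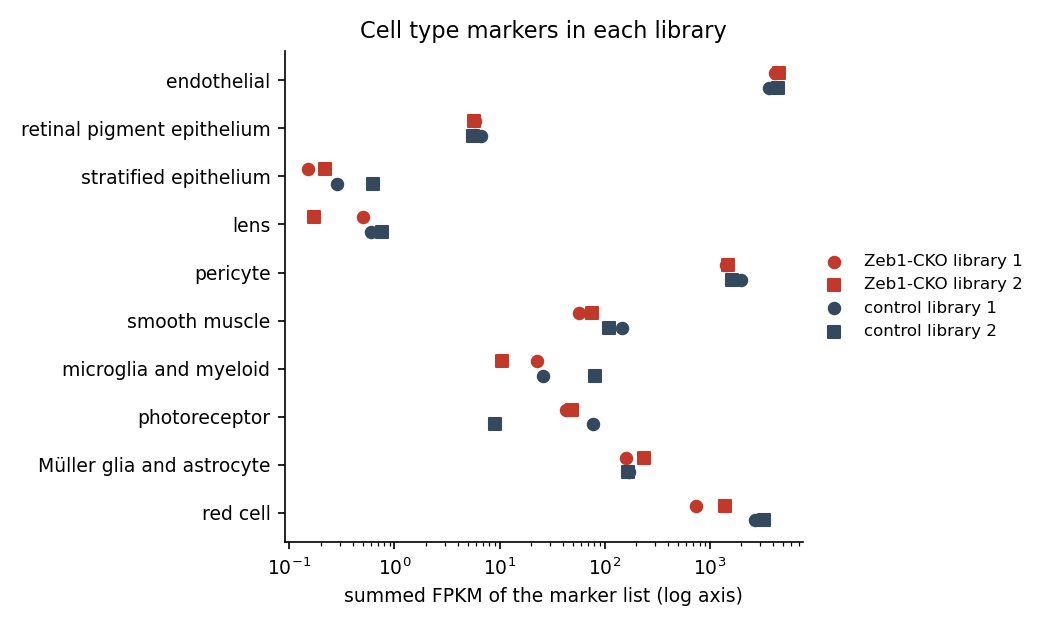
Summed FPKM of each cell type marker list, on a log axis, in the 2 Zeb1-CKO libraries (red, upper row of each pair) and the 2 control libraries (dark, lower row). Endothelial markers sum to 3700 FPKM or more in every library, retinal pigment epithelium lies between 5.63 and 6.72 FPKM in both genotypes, and stratified epithelium and lens stay below 1 FPKM.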

How the data were processed

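Per the labels' protocols, cDNA from 100 sorted cells was made with the SMART-Seq v4 kit, which does not mark strand, and read as paired ends of 150 bases. Trimmomatic 0.36, HISAT2 2.1.0, StringTie 1.3.3 and build mm10 are named in the submitters' processing notes. The authors deposited 1 table of FPKM per gene, whose header names no unit. The unit was read from the values and the tools. The annotation release is not given in the sources used here, and 53229 of 54446 gene identifiers have the same version in GENCODE M21. Spans are given only where the version matched.

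Depth was estimated from the steps between low values of FPKM times length in single-transcript genes longer than 600 bases. Between 20.3% and 27.8% of these values lay within 0.02 of a whole step, where chance gives 4%, and 24.4% to 30.2% lay as close to steps of 0.5 this size. The depths given take the larger step as 1 fragment, and reads carry no molecular identifiers.

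Genotypes were compared with limma 3.58.1 under R 4.3.3, on log2(FPKM + 1) with a trend of variance on level and genotype as the only term. The fit took the 13651 genes whose mean reached 1 FPKM, with Benjamini-Hochberg adjusted p under 0.05. FPKM are not counts, so no count test was run. The fit was tested on simulated data. Near-identical copies were sought with BLAST 2.17.0, at 95% identity over 80% of either transcript and at least 200 bases. Promoters came from RefSeq tables, which held 3 of the 5 members. The genes named are the members, called pathway genes, the 2 most abundant genes of a list with none called, 4 nearest neighbours per called member and Zeb1, with exceptions stated. Some listed genes are not reported here. The members and lists were chosen with earlier results of these data known. Alternatives were other pseudocounts, filters, scalings and variance models, the replicate number as a block, and each library left out.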

Additional observations from a re-analysis of the deposited data

How the results depend on the processing

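Each of the 14 alternatives that gave a value kept the direction of the 5 members, and Epcam, Spint1 and Spint2 kept their calls in all 14, with log2 fold changes of 5.74 to 8.90, 4.51 to 7.33 and 3.72 to 4.71. St14 kept its direction but lost its call with no filter on the mean (log2 fold change 1.44, limma's adjusted p = 0.15), with the replicate number as a block (1.44, adjusted p = 0.0612), and without each library (1.37 to 1.52). Prss8 had a value only under the 3 other filters, with adjusted p between 0.06 and 0.292. Over all genes, 304 were higher and 123 lower. With no filter beyond a value above 0 the counts were 70 and 15, and 68 were lower with a mean of at least 0.1 FPKM, fits that test more genes. Without 1 library, which leaves a lone library assumed to vary like the others, 44 to 224 were higher and 15 to 59 lower. The 1 pathway gene called lower, Serpine2, was not called with the filter at 0.1 FPKM, with no filter, without a trend, under the block or without any 1 library (0 genes in each, from 0 to 0 over the libraries left out). The counts of pathway genes called higher stayed between 6 and 9.

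The labels give each genotype replicates 1 and 2 but state no shared litter or day. With the replicate number as a block, 155 genes were higher, 38 lower and 0 pathway genes lower. The deviations of same-numbered libraries had a Pearson r of -0.118 over 13651 genes. With the numbers crossed, an alternative chosen after seeing the data, 306 genes were higher and 149 lower.

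Among genes that did not pass, the sign of Ctnnb1 turned to -0.02 without control replicate 1 (up to 0.48 without another library). That of Adam10 turned to 0.43 without Zeb1-CKO replicate 1 and 0.5 without control replicate 1 (down to -0.85 without control replicate 2). The cause of these turns, and of the calls lost under the block, was not tested. Scalings moved the median log2 fold change of all genes from 0.02 to -0.02. Depth limits the control values of Epcam, Spint1, Cdcp1, Scnn1b, Cldn7 and Prss8, which rest on 12.1 estimated fragments or fewer.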
